A study of Mus musculus with 4 samples.

Results

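The gp130 cytokines signal through receptor complexes built on the shared chain gp130 (Il6st), which activate Janus kinases (JAK) and the transcription factor STAT3. LIF and cardiotrophin 1 (Ctf1) act through gp130 with the LIF receptor (Lifr), and the cardiotrophin-like cytokine (Clcf1) acts with another chain, the CNTF receptor (Cntfr). In the developing cortex this route is known for driving neural precursors towards astrocytes, with STAT3 acting on the promoter of the astrocyte gene Gfap, and Socs3 is a STAT3 target whose product shuts the receptor complex down again. The 10 genes described here are Lif, Ctf1, Clcf1, Il6st, Lifr, Cntfr, Jak1, Jak2, Stat3 and Socs3, taken by gene symbol as parts of this pathway. Of these, 9 had counts in both deposited tables, among 20385 genes that did, and all 9 passed the filter on low counts, as did 16371 genes in all. Lif had counts in 1 table only and was not tested.

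The RNA was that of the cerebral cortex, dissected at embryonic day 16 (E16) from embryos of the C57BL/6 strain that were either wild type (WT) or Cd93 knockout (KO), where CD93 is a cell surface lectin of endothelial and other cells. There were 4 libraries, 2 per genotype, named WT 1, WT 4, KO 5 and KO 6. The labels name no treatment, say neither which part of Cd93 was deleted nor in which cells, and do not say whether each library came from its own embryo, so the spread between libraries may be technical. The series' design text speaks of triplicates, and 2 libraries per genotype were analysed here. One deposited table held KO 6 with WT 1 and the other KO 5 with WT 4. Totals were 16318317 to 17586157 counts per library, so that 1 count was 0.0569 to 0.0613 CPM, the unit of counts scaled to a common library total. Cd93 itself had 680 (WT 1), 409 (WT 4), 111 (KO 5) and 99 (KO 6) counts, which follows the genotype labels. In edgeR's quasi-likelihood test over all genes it differed by -2.32 on the log2 scale (SE 0.25, adjusted p 0.21). It passed in 4 of 11 alternatives, among them edgeR with the deposited table as a block (adjusted p 0.000971) and DESeq2 (3.91e-12).

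WT 1 stood apart from the other libraries in markers of cells around and below the cortex. Summed meningeal markers were 802.0 CPM in WT 1 against 56.1 to 117.2 CPM in the other 3 libraries, with all 10 of 10 genes highest in WT 1. Ganglionic eminence markers were 792.8 CPM in WT 1 against 279.9 to 418.9 CPM, with 11 of 12 highest in WT 1. KO 5 was low in both lists, with median log2 ratios of KO 5 over WT 4 of -1.39 (ganglionic eminence) and -1.21 (meningeal). For KO 6 over WT 4 these medians were only -0.235 and -0.017. Of the ganglionic eminence markers, 8 of 12 were lower in KO without overlap and 11 were lower in both tables. Of the meningeal markers, 5 of 10 were lower in KO without overlap, beside 11.9% of all genes tested. Endothelial markers (11 of 12), pericyte markers (8 of 8) and microglial markers (8 of 10) were also mostly highest in WT 1. Cortical neuron markers, at 7187 to 8379 CPM, and radial glia markers, at 1990 to 2223 CPM, gave the highest sums of the lists in every library, and no gene of any of these lists was at 0. In such bulk samples, fewer cells of a type and less RNA per cell cannot be told apart.

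Regulatory sequence is shown for Stat3 and Socs3, on which the values below turn. It is also shown for the STAT3 targets Gfap and Bcl6, whose windows held a match to the palindromes described next. STAT dimers are known to bind the gamma-activated palindrome TTCNNNGAA and the same palindrome with 1 more free base in its centre. Each form reads alike on both strands, and both cannot match from the same first base. The 250 bases before each RefSeq start site (build GRCm38.p6) were searched. Each line gives the 150 bases from 250 to 101 before the start, 5′ to 3′ on the gene's strand, with any match in capitals.
Stat3, chr11:100939641-100939790, minus strand: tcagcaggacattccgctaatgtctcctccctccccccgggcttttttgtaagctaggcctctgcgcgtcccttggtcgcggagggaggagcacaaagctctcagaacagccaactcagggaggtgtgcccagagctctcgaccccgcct
Socs3, chr11:117969467-117969616, minus strand: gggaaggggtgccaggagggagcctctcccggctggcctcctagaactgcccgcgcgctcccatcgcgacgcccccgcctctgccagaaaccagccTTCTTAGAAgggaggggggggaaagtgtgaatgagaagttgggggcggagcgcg
Gfap, chr11:102897301-102897450, minus strand: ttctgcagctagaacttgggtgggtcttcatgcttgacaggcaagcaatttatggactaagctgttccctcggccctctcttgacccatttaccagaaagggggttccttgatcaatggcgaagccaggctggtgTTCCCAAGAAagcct
Bcl6, chr16:23988953-23989102, minus strand: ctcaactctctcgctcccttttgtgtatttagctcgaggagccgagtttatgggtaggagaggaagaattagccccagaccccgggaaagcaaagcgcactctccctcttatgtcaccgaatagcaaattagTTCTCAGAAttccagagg
Socs3 held TTCTTAGAA from 154 to 146 bases before its start, Gfap held TTCCCAAGAA from 115 to 106 before, and Bcl6 held TTCTCAGAA from 118 to 110 before in the window shown. The Socs3 stretch lies in an intron of a longer non-coding Socs3 transcript of GENCODE M21. The Gfap stretch also lies within the annotated span of its gene, 102887336 to 102900912 on chromosome 11. Windows were given for 9 of the 10 genes, all but Clcf1, and Socs3 was the 1 gene of them with a match. Among known STAT3 targets, 5 of 20 genes with a window had a match, in 6 of their 26 windows, and over all genes 12.4% of 32851 windows of this length did. Another Bcl6 window, not shown, held 3 matches. Ifitm3 and Il4ra, targets named by the same rule as Gfap and Bcl6, had no match in their windows and are not shown. A match is a description of these letters and not a measured binding site.

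The upstream end of the pathway was sparse in counts. Lif (ENSMUSG00000034394, chromosome 11, 4257557 to 4272514, plus strand) had 7 counts in WT 1 and 0 in KO 6. A table lists a gene from 2 summed counts on, so WT 4 and KO 5 together held at most 1 count of Lif. Against a floor of 3 counts for KO 6, WT 1 as counted was 2.17-fold higher, which leaves out the counting error of its own 7 counts. WT 4 did not share the value of WT 1. In the authors' deposited table Lif had a log2 fold change of -3.70 and an adjusted p of 0.0458 for KO 6 against WT 1, marked as significant like 4.67% of the genes there, with 0 counts entered as a fraction of a read. The high value is therefore one of WT 1 alone, the library that also stood apart in its markers, and the part of those cells was not tested.

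Ctf1 (ENSMUSG00000042340, chromosome 7, 127712736 to 127718192, plus strand), an activating cytokine that reaches precursors from cortical neurons, had 3.21 (WT 1), 3.11 (WT 4), 3.42 (KO 5) and 2.34 (KO 6) CPM. KO 6 was low and the other 3 libraries lay close together, so the genotypes overlapped. The WT mean was 3.16 ± 0.0662 CPM and the KO mean 2.88 ± 0.766 CPM (± SD of 2 libraries). On the log2 scale the KO to WT difference was -0.13 (SE 0.32), which was smaller than the spread between the KO libraries. Ctf1 shares 87 bases with Ctf2 on the opposite strand, but Ctf2 had 3 to 6 counts per library beside 38 to 60 for Ctf1.

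Clcf1 (ENSMUSG00000040663, chromosome 19, 4214238 to 4223490, plus strand), a ligand of the CNTF receptor, had 2.76 (WT 1), 1.17 (WT 4), 1.31 (KO 5) and 1.17 (KO 6) CPM. WT 1 alone was high, and WT 4 lay with both KO libraries. Its log2 fold change of -0.66 (SE 0.49) thus rested on 1 library and turned to 0.08 without WT 1. Within the tables the log2 ratio was -1.16 for KO 6 over WT 1 and 0.15 for KO 5 over WT 4. The WT 1 to WT 4 ratio, 1.15 on the log2 scale, was as wide as the former. The authors' deposited table marked Clcf1 as significant for KO 6 against WT 1 (log2 fold change -1.26, adjusted p 0.00382). Meningeal, ganglionic eminence, endothelial, pericyte and microglial markers shared the high value in WT 1, and their part in it was not tested. The annotated coding gene AC109138.7 covers 9134 bases of Clcf1 on the same strand, so the Clcf1 counts are uncertain.

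**Figure D1:**
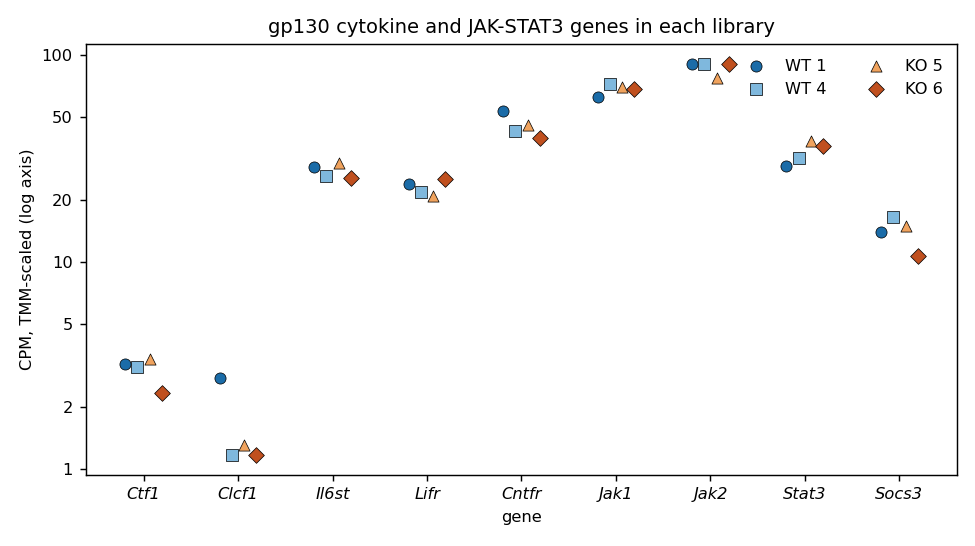
TMM-scaled CPM (log axis) of the 9 genes with counts in both tables, 1 point per library (WT 1 circle, WT 4 square, KO 5 triangle, KO 6 diamond). Stat3 is the 1 gene with both KO libraries on one side of both WT libraries, as for 23.4% of all genes tested, and Clcf1 is high in WT 1 alone.

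The receptor chains showed no difference beyond the spread between libraries. Il6st (ENSMUSG00000021756, chromosome 13, 112464070 to 112510086, plus strand), which encodes gp130, had 28.9 (WT 1), 25.8 (WT 4), 29.9 (KO 5) and 25.4 (KO 6) CPM. Lifr (ENSMUSG00000054263, chromosome 15, 7129559 to 7197489, plus strand) had 23.8, 21.7, 20.8 and 25.1 CPM in the same order. For both genes the highest and the lowest library were the 2 KO libraries. Fitted log2 fold changes were 0.01 (95% interval -0.33 to 0.35) for Il6st and 0.01 (-0.35 to 0.37) for Lifr. Each interval, read on its own, left room for a KO to WT difference of less than 1.5-fold in either direction.

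Cntfr (ENSMUSG00000028444, chromosome 4, 41657498 to 41697089, minus strand), the ligand-binding chain for CNTF and CLCF1, had 53.7 (WT 1), 42.6 (WT 4), 45.7 (KO 5) and 39.5 (KO 6) CPM. WT 1 was again high, and WT 4 lay between the KO libraries. The log2 fold change was -0.18 (SE 0.15), it differed in direction between the tables (-0.44 and 0.10), and it was 0.0002 without WT 1. The gene next to it, Il11ra1, the receptor of interleukin 11, starts on the other strand with 2899 bases between the 2 genes. Its counts followed the same extremes, with 265 (WT 1), 162 (WT 4), 163 (KO 5) and 122 (KO 6) and a log2 fold change of -0.54 (SE 0.27). Both genes were highest in WT 1, as the marker lists above were, and lowest in KO 6; the part of those cell types was not tested.

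Among the kinases, Jak1 (ENSMUSG00000028530, chromosome 4, 101152367 to 101265282, minus strand) had 62.6 (WT 1), 72.1 (WT 4), 69.5 (KO 5) and 68.6 (KO 6) CPM. Its KO libraries, 69.0 ± 0.616 CPM, lay between the WT libraries, and the log2 fold change was 0.04 (95% interval -0.23 to 0.30). Jak2 (ENSMUSG00000024789, chromosome 19, 29251828 to 29313080, plus strand) had 90.5 (WT 1), 89.9 (WT 4), 77.2 (KO 5) and 89.9 (KO 6) CPM. KO 5 alone was low, and KO 6 lay between both WT libraries. For Jak2 the log2 fold change was -0.11 (95% interval -0.38 to 0.15). In the authors' deposited table Jak2 had an adjusted p of 0.00143 for KO 5 against WT 4 and of 0.540 for KO 6 against WT 1.

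Stat3 (ENSMUSG00000004040, chromosome 11, 100885098 to 100939540, minus strand), the transcription factor on which these receptors converge, was the 1 gene of the set whose genotypes did not overlap. It had 517 (WT 1), 543 (WT 4), 670 (KO 5) and 590 (KO 6) counts, or 29.1, 31.9, 38.3 and 36.4 CPM. Both KO libraries lay above both WT libraries. The WT mean was 30.5 ± 1.99 CPM and the KO mean 37.3 ± 1.33 CPM (± SD of 2 libraries), a 1.22-fold higher level in KO. The gap was similar within each table, 0.32 on the log2 scale for KO 6 over WT 1 and 0.26 for KO 5 over WT 4. Across the tables it was 0.39 for KO 5 over WT 1 and 0.19 for KO 6 over WT 4. Each of these gaps was wider than that within WT (0.13 between WT 1 and WT 4) and within KO (0.07). Fitted over the 4 libraries, the log2 fold change was 0.29 (SE 0.12, 95% interval 0.01 to 0.58).

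This difference did not pass the test across all genes. In edgeR's quasi-likelihood test Stat3 had an unadjusted p of 0.047 and an adjusted p of 0.9999. An unadjusted p under 0.05 was found for 317 of the 16371 genes, or 1.94%. Libraries of the genotypes did not overlap for 23.4% of all genes tested, and 11.5% were higher in KO, beside 1 of the 9 genes here. An exact permutation test of 2 libraries against 2 cannot go below a p of 0.333. Stat3 shares 72 bases with Stat5a on the opposite strand, and whether counting used the strand is not given in the sources used here, but Stat5a had 10 to 13 counts in each library.

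The authors' deposited p-values, which compare 1 library with 1 library, gave Stat3 an adjusted p of 0.00347 for KO 6 against WT 1 and of 0.0118 for KO 5 against WT 4. Stat3 was higher in KO in both and was not marked as significant, being below the 2-fold mark used there. Of the 9 genes, Clcf1 was marked for KO 6 against WT 1 and none for KO 5 against WT 4, where 2.31% of all genes were. At an adjusted p under 0.05 the deposited tables held 4 of these 9 genes for KO 6 against WT 1 (Clcf1, Cntfr, Stat3 and Socs3), where 21.2% of all genes passed, and 2 of 9 for KO 5 against WT 4 (Jak2 and Stat3), where 12.9% did. Stat3 was the 1 gene of the 9 that passed in both with the same direction, as did 1.76% of all 20385 genes, 0.819% being higher in KO in both.

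Socs3 (ENSMUSG00000053113, chromosome 11, 117966079 to 117970047, minus strand), the feedback inhibitor that carries the palindrome shown above, had 13.9 (WT 1), 16.5 (WT 4), 14.96 (KO 5) and 10.7 (KO 6) CPM. KO 6 alone was low, and KO 5 lay between the WT libraries. The WT mean was 15.2 ± 1.85 CPM and the KO mean 12.8 ± 3.04 CPM (± SD of 2 libraries), and the log2 fold change was -0.25 (SE 0.22, 95% interval -0.77 to 0.28). The ratio was below 0 in both tables, -0.38 and -0.14 on the log2 scale, whereas the 2 KO libraries differed from each other by 0.48. Stat3 and Socs3 thus pointed in opposite directions in each table, but the Socs3 difference lay within the spread between libraries.

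**Figure D2:**
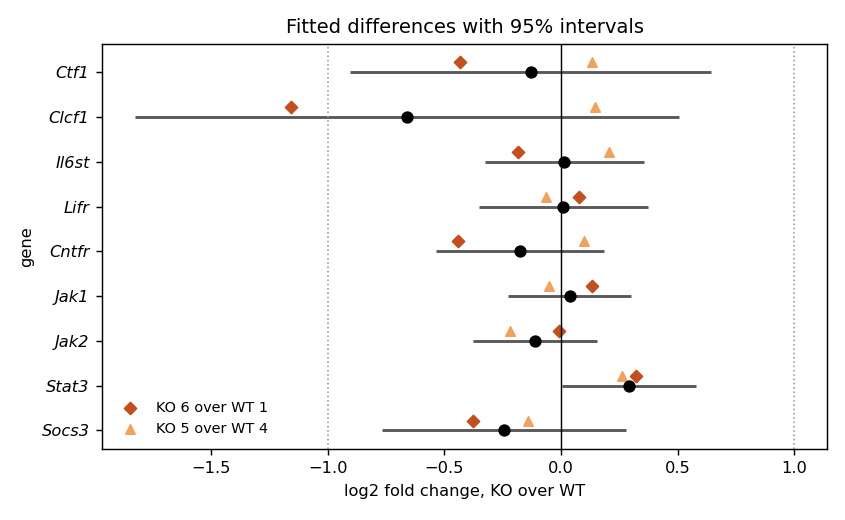
Log2 fold change of KO over WT from edgeR (black points) with 95% intervals (bars), and the log2 ratio within each deposited table (diamonds, KO 6 over WT 1; triangles, KO 5 over WT 4); dotted lines mark 2-fold. The Stat3 interval starts just above 0 and its 2 ratios nearly coincide, whereas 6 of the 9 genes have ratios of opposite direction.

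Across the set, 0 of 9 genes passed the test at an adjusted p of 0.05, where 2 of 16371 genes did (0.0122%), and 1 of 9 had an unadjusted p under 0.05. DESeq2 and limma-voom also called 0 of the 9. The log2 fold change was above 0 in 4 genes and below 0 in 5, with a median of -0.11 against -0.003 over all genes tested. That median rested on single libraries, being 0.0002 without WT 1 and -0.02 without KO 6. The direction was the same in both tables for 3 genes (Stat3 higher, Jak2 and Socs3 lower) and opposite for 6. The 95% interval lay within 2-fold in either direction for 8 of the 9 genes, all but Clcf1, beside 74.1% of all genes. It lay within 1.5-fold for 6 of the 9, beside 54.1%, the others being Ctf1, Clcf1 and Socs3.

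**Figure D3:**
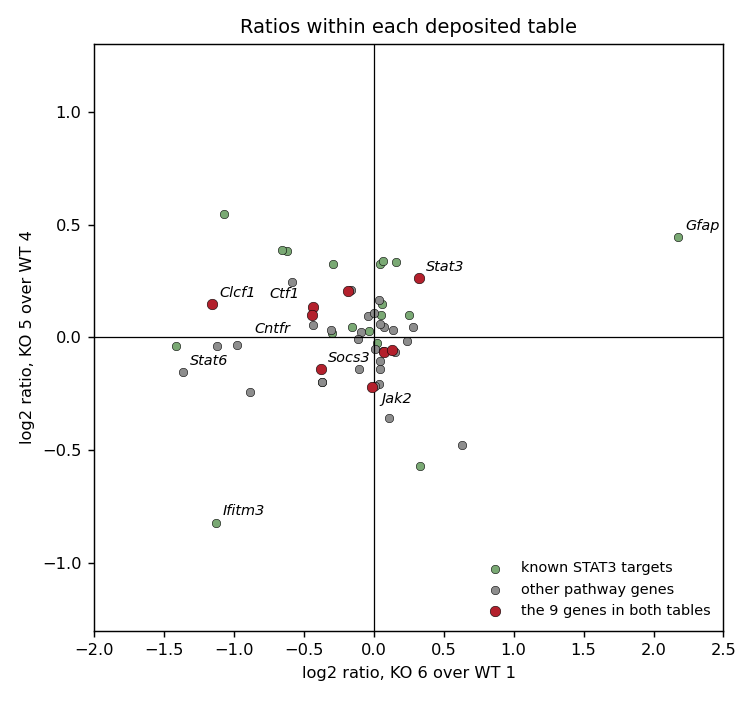
Log2 ratio of KO 6 over WT 1 (x axis) against KO 5 over WT 4 (y axis), 1 point per gene, for the 9 genes, other pathway genes and known STAT3 targets. Stat3 and Gfap lie in the quadrant higher in KO in both tables, and Ifitm3 in the quadrant lower in both.

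The other genes of the pathway were read from a list of 39 ligands, receptors, kinases, STATs, inhibitors and coactivators, of which 30 were tested. None of the 30 passed in edgeR's test, nor in DESeq2 or limma-voom, and 0 had an unadjusted p under 0.05 in any of these 3 tools. In other edgeR settings with all libraries, 1 did with other size factors, 1 of 36 without the filter and 2 with the deposited table as a block. With the tables crossed, or genes of 1 table kept, 0 did. In the main fit 13 were higher and 17 lower in KO, with a median log2 fold change of -0.03. Genotypes did not overlap for 9 of the 30, 5 higher and 4 lower, beside 23.4% of all genes. All 3 other receptors tested, Il11ra1, Il6ra and Osmr, were lower in KO in both tables without passing the test, with a median log2 fold change of -0.54. Each of these 3 was highest in WT 1.

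Stat6, which serves interleukin 4 receptors, had 119 (WT 1), 64 (WT 4), 59 (KO 5) and 41 (KO 6) counts, with a log2 fold change of -0.82 (SE 0.37). Ptpn6, a phosphatase of blood cells, had 50, 24, 24 and 20 counts in that order, with -0.70 (SE 0.44). Both were near 2-fold higher in WT 1 than in WT 4, and the summed microglial markers were 109.8 against 62.8 CPM; the part of those cells was not tested. The 14 inhibitors tested had a median of -0.005, and the abundant Socs2, a regulator of growth hormone signalling, had 1205 to 1314 counts in every library with a log2 fold change of 0.06 (SE 0.09).

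Of 24 genes known as STAT3 targets, 19 were tested and 0 passed in edgeR, DESeq2 or limma-voom, with 1 at an unadjusted p under 0.05 in each. In edgeR 9 were higher and 10 lower in KO, with a median log2 fold change of -0.001. Without overlap of the genotypes, 4 of the 19 were higher and 2 lower in KO, beside 11.5% and 11.9% of all genes tested. Gfap, the intermediate filament of astrocytes, had 1.12 (WT 1), 3.11 (WT 4), 4.28 (KO 5) and 5.49 (KO 6) CPM. Both KO libraries were above both WT libraries, and WT 1 was low. The log2 fold change of 1.20 (SE 0.48, unadjusted p 0.0433 in edgeR) was 2.17 within the table of WT 1 and KO 6 and 0.44 within the other. It passed in 1 setting, without WT 4 (log2 fold change 2.11, adjusted p 0.00494 in edgeR), where KO was compared with WT 1 alone. Summed astrocyte markers, a list that includes Gfap, were 960.3 (WT 1), 739.4 (WT 4), 815.7 (KO 5) and 767.1 (KO 6) CPM, highest in WT 1 and lowest in WT 4. Of the 11 astrocyte markers tested, 4 were higher and 7 lower in KO and 0 passed in edgeR, 2 with an unadjusted p under 0.05. Of the 12 in the list, 2 were higher in KO without overlap, beside 11.5% of all genes tested. The part of astrocyte number in the Gfap values was not tested.

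Bcl6, a transcriptional repressor of the neuronal lineage with a window shown above, had 38.9, 40.9, 43.8 and 46.5 CPM in WT 1, WT 4, KO 5 and KO 6. Its genotypes did not overlap, as for 23.4% of all genes tested, and the log2 fold change was 0.18 (SE 0.11). Ifitm3, an interferon-induced membrane protein, had 60 (WT 1), 29 (WT 4), 16 (KO 5) and 24 (KO 6) counts, with a log2 fold change of -1.09 (SE 0.47). Il4ra, the interleukin 4 receptor chain, had 59, 39, 39 and 19 counts, with -0.72 (SE 0.42). Both were lowest in a KO library and highest in WT 1, so that among these 4 targets 2 were higher and 2 lower in KO.

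**Figure D4:**
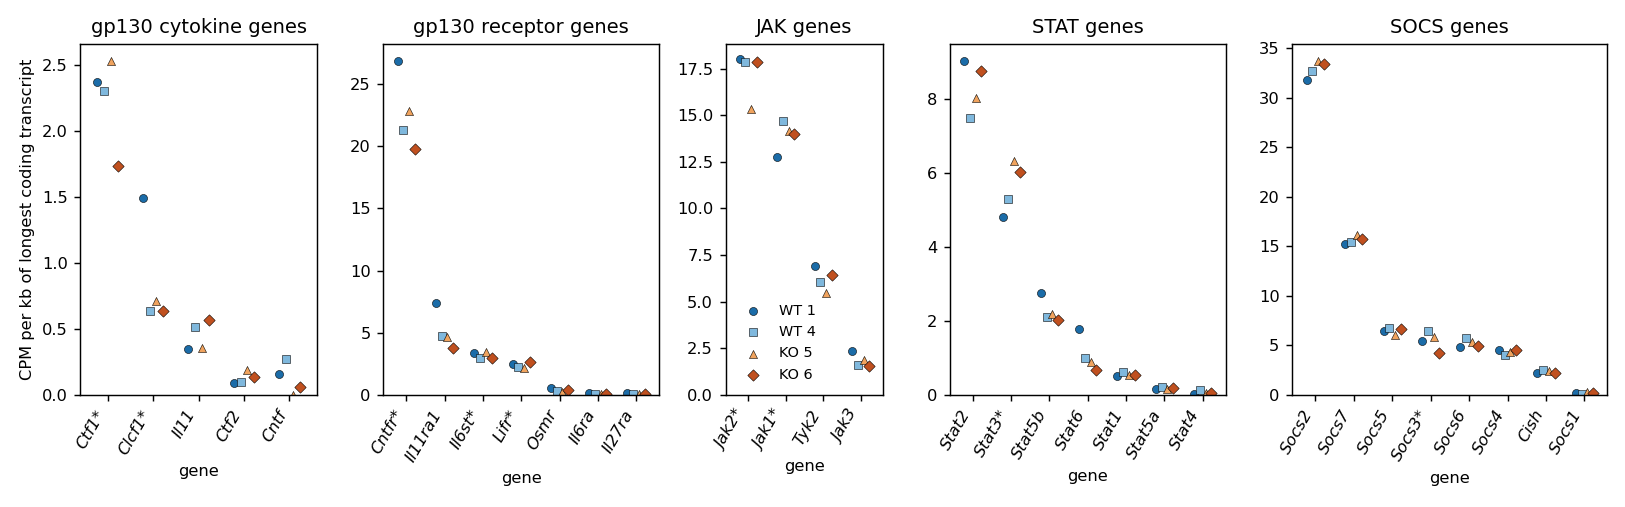
CPM per kb of the longest coding transcript for gp130 cytokine, gp130 receptor, JAK, STAT and SOCS genes, 1 point per library; asterisks mark the genes of the set. Cntfr leads the receptors, Jak2 and Jak1 the kinases, Stat2 and then Stat3 the STAT genes, and Socs2 the SOCS genes.

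Levels were compared between genes as CPM per kb of the longest coding transcript. Cntfr was highest, at 22.7 ± 3.06 (SD over the 4 libraries, as for the following levels), then Jak2 at 17.3 ± 1.29 and Jak1 at 13.9 ± 0.824. Stat3 (5.61 ± 0.690) and Socs3 (5.49 ± 0.969) had overlapping ranges. Il6st (3.17 ± 0.254) was above Lifr (2.37 ± 0.202) and Ctf1 (2.24 ± 0.349), whose ranges overlapped, and Clcf1 (0.869 ± 0.418) was lowest. This order depends on the length used: per median transcript length Jak1 led at 25.6, and Il6st, at 10.7, was above Stat3 at 9.11.

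Within their families, Cntfr made up 65.7% to 68.3% of the summed per-length level of the gp130 receptor genes in each library. Jak2 held 41.6% to 45.0% and Jak1 31.9% to 38.4% of the JAK genes. Stat3 held 25.3% (WT 1), 31.4% (WT 4), 34.9% (KO 5) and 33.0% (KO 6) of the STAT genes, with both KO libraries above both WT libraries. Stat2 had the highest level of the STAT genes in all 4 libraries on this length, at a mean of 8.33 CPM per kb. Per median transcript length the mean of Stat3 (9.11) was above that of Stat2 (8.33). In WT 1, however, Stat2 stayed above Stat3 on that length, at 38.1% against 32.9% of the STAT genes. Socs3 was a small share of the SOCS genes, 5.83% to 8.78%, beside 44.4% to 46.6% for Socs2. Per median transcript length these shares were 3.08% to 4.69% for Socs3, 55.6% to 57.8% for Socs2, 47.6% to 50.1% for Cntfr, 33.9% to 38.1% for Jak2 and 44.2% to 51.3% for Jak1. The Stat3 share was then 32.9% (WT 1), 40.3% (WT 4), 44.4% (KO 5) and 42.8% (KO 6), higher in both KO libraries as with the longest transcript. Both shares rest on the Stat3 counts given above and also move with the other STAT genes. The cytokine gene Cntf had 0 to 5 counts per library.

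**Figure D5:**
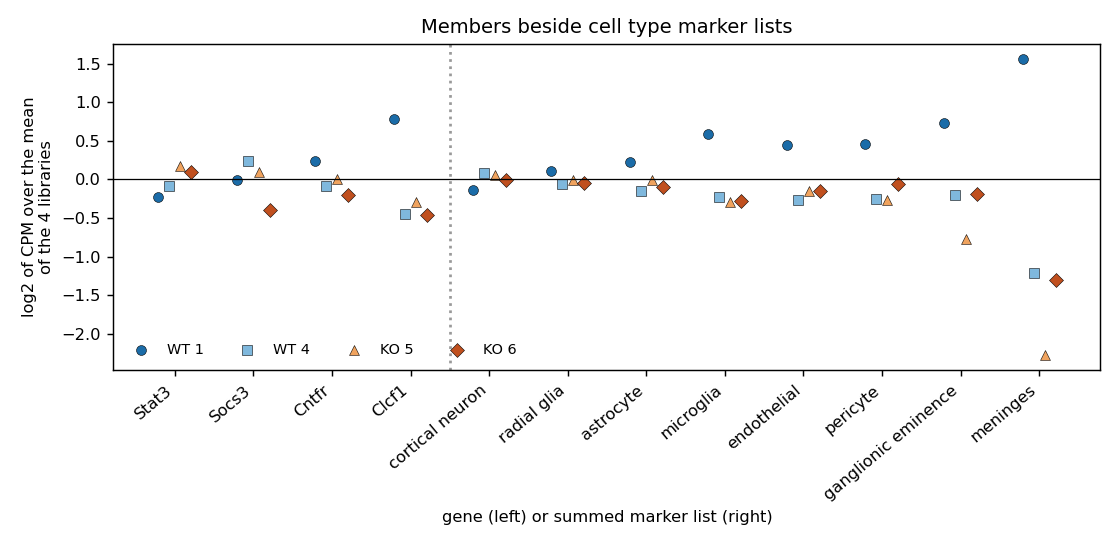
Log2 of CPM in each library over the mean of the 4 libraries, for Stat3, Socs3, Cntfr and Clcf1 (left of the dotted line) and for summed marker lists (right). WT 1 is the highest library for Cntfr, Clcf1 and the meningeal list (802.0 CPM), and the lowest for Stat3.

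Stat3 was lowest in WT 1, the library highest in meningeal, ganglionic eminence and vascular markers, so the difference was also read without it. Without WT 1, Stat3 remained higher in KO by 0.23 on the log2 scale in a fit that takes WT 4 to vary like the KO libraries. Within the table that does not hold WT 1, the ratio of KO 5 to WT 4 was 0.26, beside 0.32 in the other. The ratio of KO 6 to WT 4, across the tables, was 0.19. Among the other 3 libraries the summed astrocyte markers (739.4 CPM in WT 4, 767.1 in KO 6 and 815.7 in KO 5) had the same order as Stat3. So did the radial glia markers (1990, 2001 and 2056 CPM) and the endothelial markers (216.0, 233.2 and 233.5 CPM). The other marker lists did not. The endothelial sums of KO 6 and KO 5 were nearly equal, as were the radial glia sums of WT 4 and KO 6. How often genes share this order of 3 libraries was not counted. In WT 1 the astrocyte, radial glia and endothelial sums were highest and Stat3 was lowest. Their part in the Stat3 difference was not tested.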

How the data were processed

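The authors deposited 2 tables of whole counts per Ensembl gene, each with 1 KO and 1 WT library, per the file headers. Tools named in the processing notes of the submitters are HTSeq 0.6.0, TopHat2 2.0.12 and Bowtie2 2.2.3, and the named build is mm9, whereas the deposited gene positions are those of GRCm38 (92.2% of genes found in GENCODE M21 have its start and end). The CPM deposited by the authors are counts scaled to the library, with 0 entered as a fraction of a read, and the deposited ratio and log2 fold change are of those CPM. Each deposited p-value, raw or adjusted, is a test between the 2 libraries of its table, and the tool for it is not given in the sources used here.

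Counts of the 20385 genes in both tables went into edgeR 4.0.16 under R 4.3.3 (filterByExpr, TMM factors 0.994 to 1.012, quasi-likelihood test, Benjamini-Hochberg over 16371 genes, two-sided, threshold 0.05). CPM in the text are TMM-scaled, and the SE and the 95% intervals, unadjusted for the number of genes, were derived from the F statistic. Ratios within tables used log2 CPM with a prior count of 2. Alternatives were DESeq2 1.42.0, limma-voom (limma 3.58.1), other size factors, no filter, each library left out, the table as a block and genes of 1 table kept. The fits were tested on simulated counts with changes larger than that of Stat3, which does not show how they perform on smaller differences. Floors of 3 counts cover counting error only. Beyond the 10 genes and Cd93, the genes named are the 4 of smallest p in the pathway list and in the target list. Of these, 1 gene of the pathway list is not reported here. Il6ra, Osmr, Socs2, Stat2 and Cntf, and the overlapping genes Ctf2 and Stat5a, were named after their values were seen. The genes and lists were chosen with earlier results of these data known.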

Additional observations from a re-analysis of the deposited data

How the results depend on the processing

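With 2 libraries per genotype, 0 of the 9 tested genes passed in any of the 11 alternatives. Over all genes, 2 passed in edgeR, 8 in DESeq2, 29 with the deposited table as a block, 1 with the tables crossed, and 5 to 312 with 1 library left out (44 without WT 1, 312 without WT 4, 5 without KO 5, 8 without KO 6). Stat3 was higher in KO in all 11 (log2 fold change 0.23 to 0.37, unadjusted p 0.0316 to 0.263, adjusted p from 0.874 up, edgeR, DESeq2 or limma). Socs3 (-0.51 to -0.02) and Jak2 (-0.22 to -0.003) were lower in all 11. The direction of the other 6 depended on single libraries. With 1 library left out, log2 fold changes ran from -0.43 to 0.12 for Ctf1 (above 0 without KO 6), -1.14 to 0.082 for Clcf1 and -0.33 to 0.0002 for Cntfr (both above 0 without WT 1), -0.11 to 0.13 for Il6st (below 0 without WT 4 or KO 5), -0.13 to 0.14 for Lifr (below 0 without WT 4 or KO 6) and -0.0624 to 0.15 for Jak1 (below 0 without WT 1); the cause was not tested. The number of genes whose genotypes did not overlap, 1 with all libraries, was 3 to 7 with 1 left out, since a lone library overlaps less often by construction. The median over STAT3 targets, -0.001, was -0.0675 to 0.138 with 1 library left out, the latter without WT 1. Overlap of genotypes was not recounted under another tool, block or filter, which leave CPM as they are. Where a library is left out, the lone one is taken to vary like the other genotype. No pairing by replicate number was possible because WT 1 and WT 4 share no number with KO 5 and KO 6, and the fit with the deposited table as a block pairs each KO library with the WT library of its table. Ctf1, Clcf1 and Lif are limited by depth, at 60 counts or fewer per library.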

Other observations

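The count ratio of Socs3 to Stat3 was computed after the values of both genes were seen, so it carries no test. It was 0.478 (WT 1), 0.517 (WT 4), 0.391 (KO 5) and 0.293 (KO 6), and both KO libraries lay below both WT libraries. Stat3 by itself already did not overlap, as for 23.4% of all genes tested. The ratios of Jak2 to Jak1, Lifr to Il6st and Cntfr to Lifr overlapped between genotypes, and a further pair is not reported here. The share of all gene pairs without overlap was not computed. As a ratio within a library it does not depend on scaling between libraries. It is of raw counts, not corrected for transcript length, so it does not compare the levels of the 2 genes. Nor does it say which of them differed between libraries.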
